A study of Mus musculus with 6 samples.

Results

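Secreted growth factors drive the growth of vessels and carry signals from the dermis to the epidermis, and dermal fibroblasts are a source of several of them. The genes described here are Vegfa, Vegfb, Vegfc, Pgf, Angpt1, Angpt2, Hgf, Fgf2 and Fgf7, chosen by name. These genes and the gene lists used below were chosen with earlier results of these data known. The shares called among them are therefore descriptions and not tests of the sets. All 9 growth factor genes were found among the 43629 gene IDs measured. All 9 passed the filter on low counts that left 15341 genes for testing. RNA was sequenced from primary dermal fibroblasts of newborn mouse skin at passage 1, after 6 days of culture. Every mouse carried Col1a2Cre, a transgene that puts Cre recombinase into fibroblasts, on a mixed background of 50% C57Bl/6 and 50% FVB/N. The 3 ctrl libraries came from mice with Col1a2Cre alone. The 3 caNrf2 libraries came from mice that carried, besides Col1a2Cre, caNrf2, a constitutively active form of Nrf2. Nrf2 is a transcription factor that drives antioxidant and detoxification genes. The labels number the libraries 1 to 3 within each group, and each was taken to be the culture of a separate mouse.

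The VEGF family signals through tyrosine kinase receptors on blood and lymphatic vessel cells, with neuropilins as co-receptors. Vegfa is the main driver of vessel sprouting, Vegfb and Pgf bind FLT1, and Vegfc acts mainly on lymphatic vessels through FLT4. The angiopoietins share the receptor TEK (TIE2), which ANGPT1 activates and which ANGPT2 blocks in many settings. HGF and FGF7 (keratinocyte growth factor) are made by fibroblasts and act on epithelial cells, HGF through MET and FGF7 through the epithelial form of FGFR2. FGF2 acts on vessel cells and on fibroblasts themselves.

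Several of these genes are read as more than 1 messenger. In Vegfa, on the minus strand of chromosome 17 (GRCm38), 2 alternative coding exons encode the stretches that bind heparin and so decide how firmly the protein is held in the matrix. The protein forms are known as VEGFA120 (neither exon), VEGFA164 (the 132-base exon only) and VEGFA188 (both exons). In Vegfb, on the minus strand of chromosome 19, a 101-base segment at the start of the penultimate exon separates VEGFB186, which has it, from VEGFB167. These stretches are printed because they set the forms apart. The isoform values further on are estimates that divide shared reads among whole transcript models. Reads over these stretches and junctions were not counted on their own. They come from the GENCODE M21 transcripts, 5′ to 3′ along the messenger, at chr17:46022277-46022348, chr17:46020991-46021122 and chr19:6985496-6985596.
Vegfa 72-base exon: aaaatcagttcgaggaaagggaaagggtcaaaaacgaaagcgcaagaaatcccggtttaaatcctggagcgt
Vegfa 132-base exon: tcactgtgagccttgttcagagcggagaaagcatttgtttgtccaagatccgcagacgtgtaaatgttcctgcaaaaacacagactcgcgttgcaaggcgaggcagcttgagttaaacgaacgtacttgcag
Vegfb 101-base segment: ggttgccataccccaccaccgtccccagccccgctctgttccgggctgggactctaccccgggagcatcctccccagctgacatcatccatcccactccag
The 3 junctions that leave the same upstream Vegfa exon start with that exon's last 15 bases, in lower case, and go on with the first 15 bases of the exon joined to it, in capitals.
Vegfa junction to the last coding exon: aacaaagccagaaaaATGTGACAAGCCAAG
Vegfa junction to the 132-base exon: aacaaagccagaaaaTCACTGTGAGCCTTG
Vegfa junction to the 72-base exon: aacaaagccagaaaaAAAATCAGTTCGAGG

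The libraries held 30168400 to 45164208 expected counts, so that 1 read was worth 0.0221 to 0.0331 CPM (counts scaled to a common library size, here with TMM factors). Nfe2l2, the gene of Nrf2, averaged 109 ± 5.87 CPM in the ctrl libraries and 380 ± 43.2 CPM in the caNrf2 libraries, and its target Nqo1 26.1 ± 3.09 and 661 ± 78.6 CPM (mean ± SD, n = 3, here and below). The levels went with the labels. Over all tested genes the edgeR test between the groups, described below, called 21.5%, and the counts of marker genes that rose or fell stand against that share. Of the markers of other cell types of the skin, all 16 tested genes of macrophages and leukocytes rose, with a summed level of 23.96 to 67.8 CPM in ctrl and 171.8 to 207 CPM in caNrf2. Of 11 skeletal muscle markers 10 rose, from a summed 141 to 161 CPM to 224 to 273 CPM. Of 11 keratinocyte markers 2 rose (207 to 344 CPM and 330 to 533 CPM), and of 10 endothelial markers 1, Cdh5, rose (13.3 to 17.9 CPM and 18.8 to 19.9 CPM). Among 10 fibroblast markers 2 rose and 5 fell, with sums of 41928 to 59486 CPM and 31078 to 36608 CPM. Of 6 mural markers 1 fell, of 8 melanocyte and Schwann markers 2 rose, of 7 adipocyte markers 1 rose and 1 fell, and of 2 lymphatic markers 0 were called. Lyz2, the leading leukocyte marker, averaged 26.5 CPM in ctrl cultures and 97.6 CPM in caNrf2 cultures. No marker of these lists was at 0 in every library. These cell types can make or receive the factors described here. The part of these differences in the results was not tested, and in a bulk culture fewer cells of a type and less RNA per cell cannot be told apart.

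Of the 9 growth factors, 5 passed the test between the groups and 4 did not. Fgf7 and Angpt1 rose in caNrf2 cultures, each 1.56-fold. Fgf2, Angpt2 and Vegfb fell, to 0.603, 0.755 and 0.752 of the ctrl level. Vegfa, Vegfc, Pgf and Hgf were not called. A gene is called where its adjusted p is under 0.05 in the edgeR quasi-likelihood test over all 15341 genes, and in that test 21.5% of all genes were called, 12.5% higher and 9.03% lower. The same 5 members were those whose groups of 3 libraries did not overlap, against 42.1% of all genes tested. The median log2 fold change was -0.35 over the 9 members and -0.00308 over all genes tested, and 7 of the 9 values were negative. These counts moved with single libraries: without ctrl 3 or without caNrf2 3 edgeR called 1 member higher (Fgf7) and 0 lower, without ctrl 2 it called Fgf7 and Angpt2, without ctrl 1 it called Vegfa in place of Fgf2, and without caNrf2 2 it called Fgf7, Angpt2 and Fgf2.

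**Figure D1:**
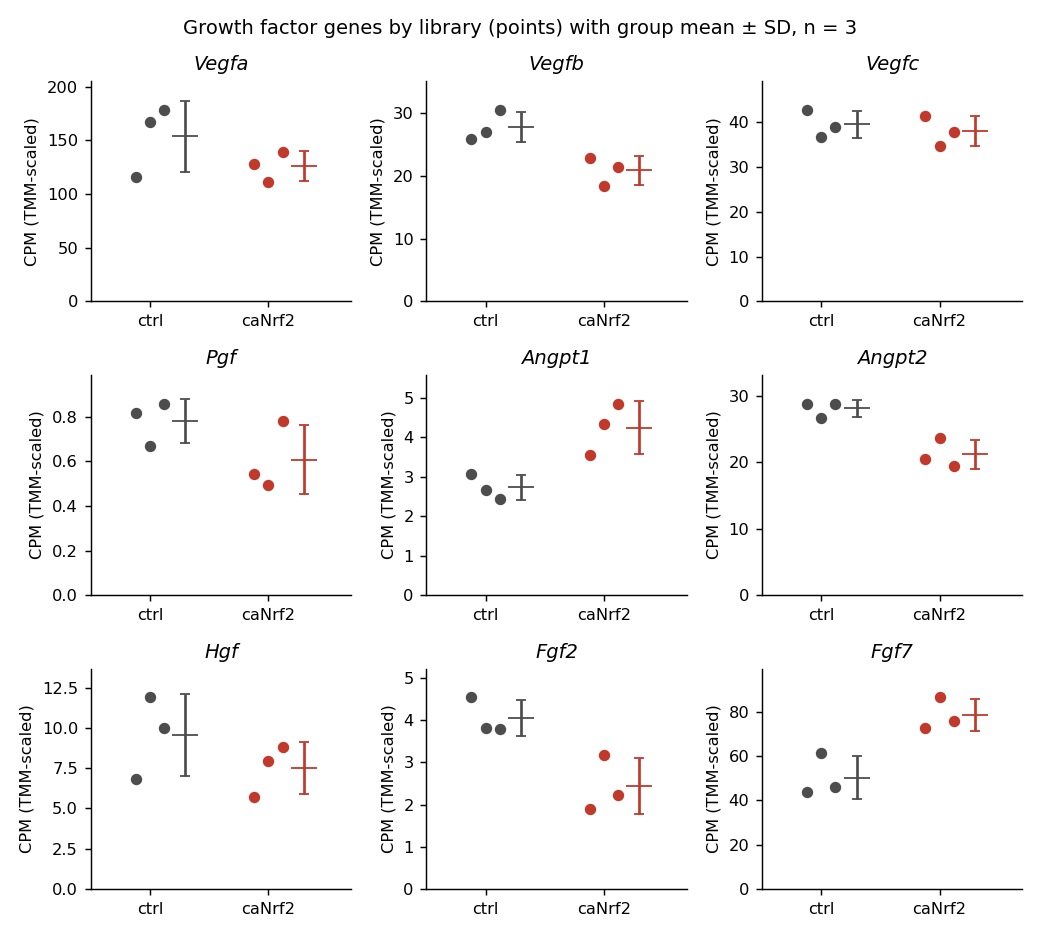
Level of each growth factor gene in CPM (TMM-scaled), with its own axis from 0; points are the 3 ctrl (grey) and 3 caNrf2 (red) libraries, and the bar beside them is the mean ± SD. The groups are apart in Vegfb, Angpt1, Angpt2, Fgf2 and Fgf7 and overlap in the other 4 genes.

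Vegfa (ENSMUSG00000023951, chromosome 17, 46016993 to 46032377) was at 116, 167.1 and 179 CPM in ctrl 1 to 3 and at 128, 112 and 139 CPM in caNrf2 1 to 3. The groups overlapped, since ctrl 1 lay below 2 of the caNrf2 libraries. The means were 154 ± 33.2 and 126 ± 14.02 CPM, a log2 fold change of -0.28 with a standard error (SE) of 0.16, and edgeR gave an adjusted p of 0.232. Vegfa passed the test once in its 16 alternatives, without ctrl 1 (log2 fold change -0.46, adjusted p = 0.0294).

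Vegfb (ENSMUSG00000024962, chromosome 19, 6982473 to 6987651), a ligand of FLT1, was at 25.9, 26.9 and 30.5 CPM in ctrl and at 22.9, 18.4 and 21.4 CPM in caNrf2. Each ctrl library lay above each caNrf2 library. The level fell from 27.8 ± 2.44 to 20.9 ± 2.28 CPM, a log2 fold change of -0.41 (SE 0.11) with an edgeR adjusted p of 0.0247. The call was lost without ctrl 2 (adjusted p = 0.0538), ctrl 3 (0.0919), caNrf2 2 (0.0799) or caNrf2 3 (0.0635), with log2 fold changes from -0.48 to -0.33 over all 16 alternatives in edgeR, DESeq2 and limma.

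Vegfc (ENSMUSG00000031520, chromosome 8, 54077532 to 54186454), the lymphatic member, was at 42.8, 36.8 and 39.0 CPM in ctrl and at 41.4, 34.7 and 37.8 CPM in caNrf2. The groups overlapped almost fully. The log2 fold change was -0.06 (SE 0.09) with an edgeR adjusted p of 0.686. Pgf (ENSMUSG00000004791, chromosome 12, 85166639 to 85177296), the placental member, rested on few reads: 29, 30 and 26 counts in ctrl and 20, 22 and 34 counts in caNrf2. Its level was 0.782 ± 0.0996 and 0.607 ± 0.154 CPM, the groups overlapped through caNrf2 3, and the log2 fold change of -0.35 had an SE of 0.28 (edgeR adjusted p = 0.401).

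The angiopoietins changed in opposite directions. Angpt1 (ENSMUSG00000022309, chromosome 15, 42424727 to 42676977), the activating ligand, was at 3.07, 2.68 and 2.45 CPM in ctrl and at 3.55, 4.35 and 4.86 CPM in caNrf2. All 3 caNrf2 libraries lay above ctrl. It rose from 2.73 ± 0.317 to 4.25 ± 0.663 CPM, a log2 fold change of 0.64 (SE 0.18, edgeR adjusted p = 0.0333). The call was lost in edgeR without ctrl 2 (adjusted p = 0.0822), ctrl 3 (0.105), caNrf2 2 (0.0934) or caNrf2 3 (0.126).

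Angpt2 (ENSMUSG00000031465, chromosome 8, 18690263 to 18741562), the context-dependent antagonist, was at 28.9, 26.7 and 28.9 CPM in ctrl and at 20.5, 23.7 and 19.5 CPM in caNrf2. The lowest ctrl library lay above the highest caNrf2 library. It fell from 28.2 ± 1.24 to 21.2 ± 2.22 CPM, a log2 fold change of -0.41 (SE 0.09, edgeR adjusted p = 0.0159). The call was lost in edgeR without ctrl 3 (adjusted p = 0.0576) or caNrf2 3 (0.0651). Per length, Angpt1 stood at 0.0855, 0.0702 and 0.0704 of Angpt2 in ctrl and at 0.118, 0.130 and 0.203 in caNrf2 (ratios of TPM, the measure scaled for transcript length and library size). Angpt1 lay above ctrl and Angpt2 below it in every caNrf2 library, so the ratio had to be higher in each of them than in any ctrl library. Its means were 0.0754 ± 0.0088 in ctrl and 0.1501 ± 0.0458 in caNrf2. For the same reason the two-sided exact permutation test could only give p = 0.1, the smallest that 20 relabelings allow.

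The epithelial factors made by fibroblasts differed in what was called. Fgf7 (ENSMUSG00000027208, chromosome 2, 126034658 to 126091185) was at 43.6, 61.4 and 45.8 CPM in ctrl and at 72.6, 86.5 and 76.0 CPM in caNrf2. The lowest caNrf2 library lay above the highest ctrl library. The level rose from 50.3 ± 9.73 to 78.4 ± 7.25 CPM, a log2 fold change of 0.64 (SE 0.13) with an edgeR adjusted p of 0.00983. Fgf7 was the 1 member called in all 16 of its alternatives, with adjusted p from 9.41e-05 to 0.0399 in edgeR, DESeq2 and limma.

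Hgf (ENSMUSG00000028864, chromosome 5, 16553550 to 16619439) was at 6.85, 11.9 and 10.01 CPM in ctrl and at 5.71, 7.96 and 8.82 CPM in caNrf2. The groups overlapped, with ctrl 1 below 2 caNrf2 libraries. The log2 fold change was -0.35 (SE 0.22, edgeR adjusted p = 0.288), and Hgf was called in 0 of 16 alternatives. The TPM of Fgf7 was 8.62, 7.38 and 6.75 times that of Hgf in ctrl and 17.8, 16.8 and 12.4 times that of Hgf in caNrf2. The 3 caNrf2 ratios lay above all ctrl ratios (7.58 ± 0.953 against 15.7 ± 2.86, two-sided exact permutation test, p = 0.1, the smallest that the design allows). The TPM of Fgf7 against that of Vegfa was 0.368, 0.413 and 0.281 in ctrl and 0.636, 0.958 and 0.621 in caNrf2, again without overlap. Each of the 3 ratios tested had an exact permutation p of 0.1, before and after adjustment over the 3. The ratios reuse the levels of the members given above and are not separate support for the calls.

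Fgf2 (ENSMUSG00000037225, chromosome 3, 37312519 to 37405377) was at 4.54, 3.82 and 3.80 CPM in ctrl and at 1.89, 3.18 and 2.23 CPM in caNrf2, from 115 to 171 counts and 70 to 141 counts. The groups did not overlap. It fell from 4.05 ± 0.421 to 2.44 ± 0.666 CPM, a log2 fold change of -0.73 (SE 0.21) with an edgeR adjusted p of 0.0406, the weakest of the 5 calls. Without 1 library the call was lost in 5 cases of 6, all except caNrf2 2, with adjusted p of 0.0688 to 0.114 in edgeR. The deposited gene also includes a transcript that GENCODE M21 assigns to Gm43439, an overlapping non-coding gene that shares bases of an Fgf2 exon. Counted without that transcript, in an alternative chosen after seeing the data, Fgf2 had a log2 fold change of -0.72 and an edgeR adjusted p of 0.0608, so that it was not called. Of the 1801 exonic bases of the deposited gene, 242 are shared with Nudt6 and 55 with Cetn4, both on the opposite strand. Without a stated strand setting the reads of these bases cannot be told apart. Bbs12, on the same strand, shares 32 bases and was at 3.82 ± 0.645 and 3.73 ± 0.803 CPM (edgeR adjusted p = 0.938). Nudt6 itself was at 2.26 ± 0.228 and 2.19 ± 0.592 CPM (edgeR adjusted p = 0.881). The longest deposited Fgf2 model has 1240 bases, whereas GENCODE M21 has one of 5973 bases, so its level per length is uncertain.

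**Figure D2:**
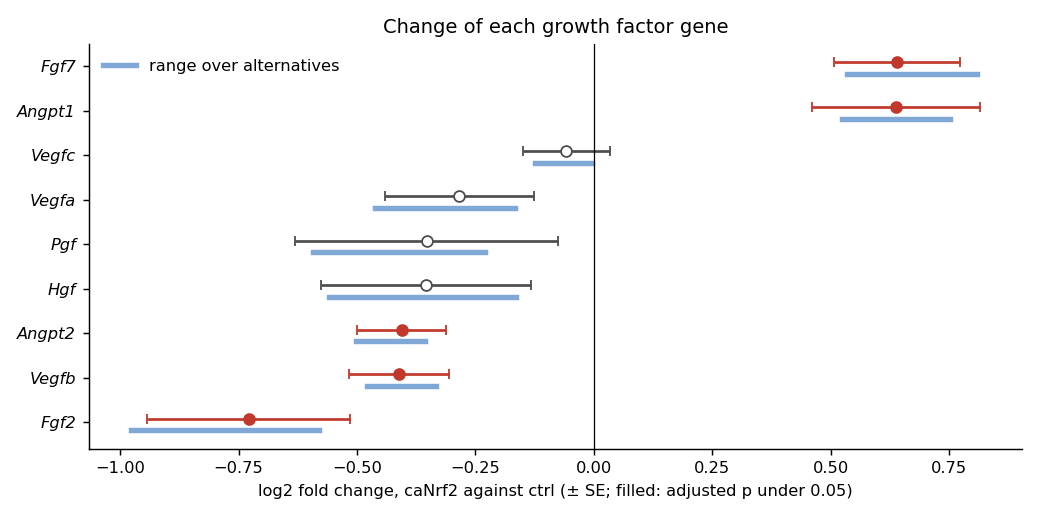
Log2 fold change of each growth factor gene in caNrf2 against ctrl (x axis) with its SE; filled red points passed the test, open points did not, and the blue bar spans the values over the alternatives. The sign of no member changed: Fgf7 and Angpt1 lay above 0 and the other 7 below 0, with Vegfc reaching close to 0.

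In level per length, Vegfa was the most abundant of the 9 in both groups and Pgf the least. Mean TPM in ctrl was 142 ± 28.9 for Vegfa, 49.7 ± 10.4 for Fgf7, 45.9 ± 3.86 for Vegfb, 41.0 ± 3.00 for Vegfc, 16.1 ± 0.765 for Angpt2 and 10.1 ± 1.27 for Fgf2. Below them came Hgf at 6.66 ± 1.796, Angpt1 at 1.21 ± 0.131 and Pgf at 0.98 ± 0.125 TPM. Neighbours in this order overlapped only for Fgf7 with Vegfb and for Vegfb with Vegfc. In caNrf2 the order was Vegfa at 106 ± 13.1 TPM, Fgf7 at 77.0 ± 14.2, Vegfc at 37.8 ± 1.76, Vegfb at 32.8 ± 2.64, Angpt2 at 12.4 ± 2.11, Fgf2 at 5.54 ± 1.60, Hgf at 5.04 ± 1.28, Angpt1 at 1.82 ± 0.359 and Pgf at 0.733 ± 0.205. There only Fgf2 and Hgf overlapped.

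**Figure D3:**
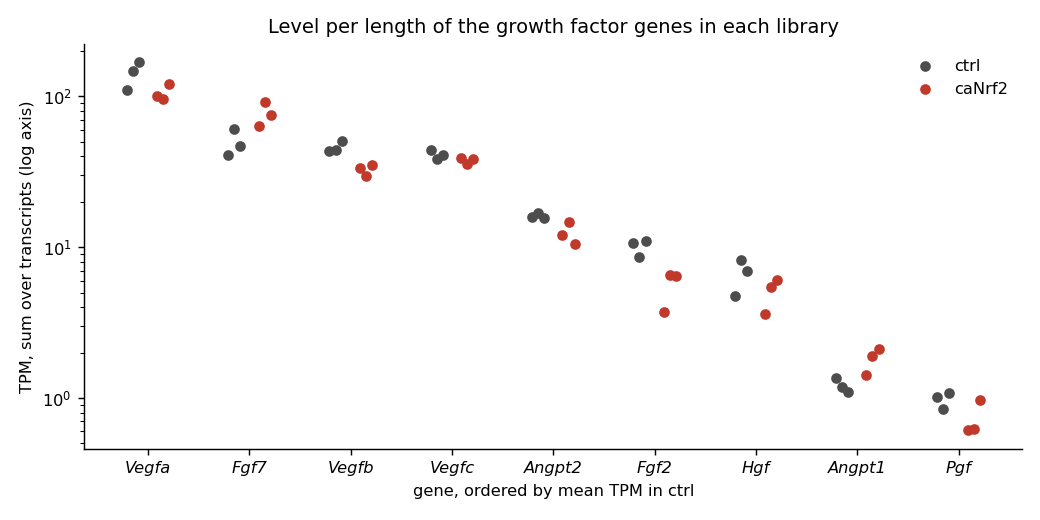
TPM summed over each gene's transcripts (log axis) in the 3 ctrl (grey) and 3 caNrf2 (red) libraries, with genes ordered by their ctrl mean. Vegfa leads in both groups, and Fgf7 comes next with a wider gap to Vegfb and Vegfc in caNrf2 than in ctrl.

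The size of the lead of Vegfa, and the ranks of Fgf7 and Fgf2, depended on which transcripts were summed. Vegfa has 6 coding transcripts and 5 that GENCODE types as retained intron, and the latter took 9.02% to 13.17% of its counts but 31.69% to 41.75% of its TPM, since they are short. Over coding transcripts alone, Vegfa was at 88.2 ± 16.4 TPM in ctrl and 68.4 ± 8.60 TPM in caNrf2. Fgf7, likewise without its non-coding transcript, was at 33.9 ± 6.70 TPM in ctrl, below Vegfb (44.9 ± 4.18) and Vegfc (41.0 ± 3.00). In caNrf2 it was at 50.1 ± 5.71 TPM, above Vegfc (37.8 ± 1.76) and Vegfb (32.4 ± 2.54). On this scale the lowest caNrf2 library had 44.36 TPM of Fgf7, and the highest had 38.84 TPM of Vegfc and 34.02 TPM of Vegfb. In ctrl the ranges of Fgf7 (29.59 to 41.62 TPM) and Vegfc (38.26 to 44.21 TPM) overlapped.

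The form with the 132-base exon alone, VEGFA164, was the main coding form of Vegfa in every library. Its share of coding TPM was 55.0%, 62.7% and 60.2% in ctrl and 71.6%, 55.5% and 58.6% in caNrf2. Transcripts with neither exon, of the VEGFA120 type, took 23.2%, 23.1% and 28.4% in ctrl and 23.9%, 26.2% and 28.6% in caNrf2. The model with both exons, of the VEGFA188 type, took 6.94%, 5.32% and 4.2% in ctrl and 1.61%, 8.86% and 4.55% in caNrf2. The caNrf2 libraries spread more widely than the ctrl libraries around nearly the same means, 5.49 ± 1.38% and 5.01 ± 3.65%. A short model of 513 bases with the 72-base exon alone took 10.3 ± 3.95% and 6.86 ± 3.51% of coding TPM but at most 2.18% of coding counts. The model with both exons that had counts has 1973 bases, and the VEGFA164 model 3451. What these differences in length do to the shares was not tested. The groups overlapped for each of the 4 forms, with exact permutation p of 0.8, 0.5, 0.9 and 0.5 in the order given (0.9 each after adjustment over the 5 tests of Vegfa and Vegfb forms).

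Vegfb was read mostly as the form with the 101-base segment, VEGFB186, at 63.3%, 73.8% and 68.9% of coding TPM in ctrl and 68.5%, 73.0% and 70.5% in caNrf2. The means were 68.7 ± 5.24% and 70.7 ± 2.24% (exact permutation p = 0.7). Fgf7 counts fell mainly on its longest transcript, with 50.4 ± 6.91% in ctrl and 47.1 ± 6.85% in caNrf2, and on a second coding transcript with 37.0 ± 4.95% and 38.8 ± 4.22%. A test of transcript usage across the whole table (edgeR's diffSpliceDGE) called 64 of 7992 genes, 0.801%. In simulated data this test also called unchanged genes, so 0.801% is a share of calls only. Of the 5 members it could test, Vegfa, Vegfb, Angpt2, Fgf2 and Fgf7, it called 0, with an adjusted p of 0.999999 each and 0 at an unadjusted p under 0.05; limma's diffSplice called 0 as well. These p-values do not show that usage was alike in the groups.

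**Figure D4:**
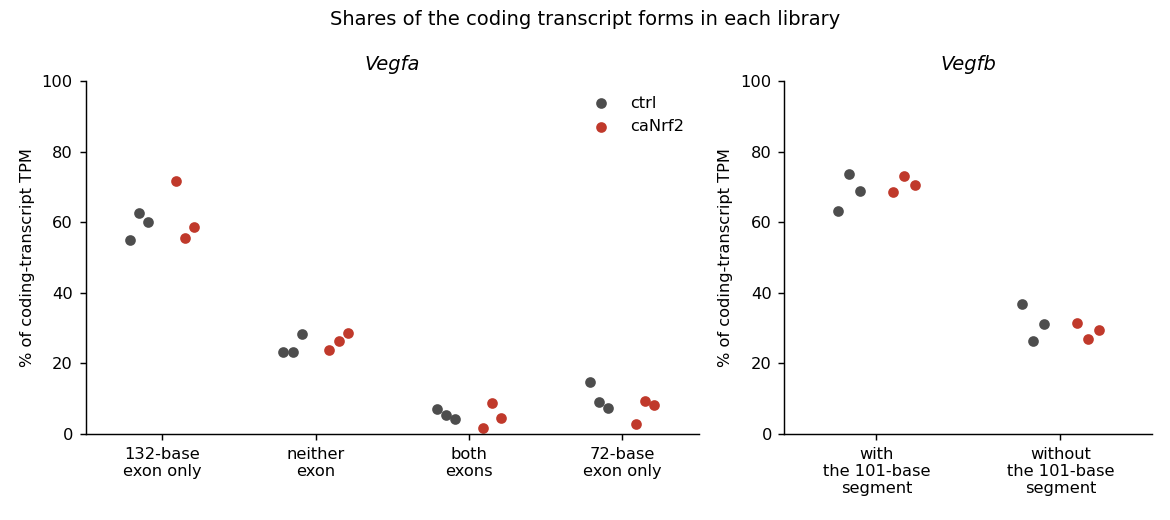
Share of each coding form in the TPM of all coding transcripts (percent, y axis from 0 to 100) for Vegfa (left) and Vegfb (right); points are the 3 ctrl (grey) and 3 caNrf2 (red) libraries. The groups overlap for every form, and the form with the 132-base exon alone leads in Vegfa in all 6 libraries.

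The receptors of these factors were read from a list of 13 genes, all tested, of which 2 rose, 1 fell and 10 were not called (23.1% called, against 21.5% of all genes). Their median log2 fold change was 0.05. Nrp1, the neuropilin that binds VEGFA164 as a co-receptor, was at 97.8, 88.1 and 93.8 CPM in ctrl and at 357, 373 and 384 CPM in caNrf2. It rose 3.98-fold, from 93.2 ± 4.90 to 371 ± 13.5 CPM (log2 fold change 1.99, SE 0.08, edgeR adjusted p = 8.45e-07). Its relative Nrp2 was at 297 ± 8.67 and 293 ± 32.02 CPM (edgeR adjusted p = 0.897).

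Met, the HGF receptor, rose 1.86-fold from 19.9 ± 4.65 to 37.0 ± 10.9 CPM (edgeR adjusted p = 0.0207). That call was lost without ctrl 2 (adjusted p = 0.0599) or ctrl 3 (0.0663). Fgfr2, whose epithelial form binds FGF7, fell from 59.3 ± 5.48 to 44.8 ± 1.56 CPM (log2 fold change -0.40, edgeR adjusted p = 0.00939). That level is summed over all transcripts of Fgfr2, and the epithelial form was not read apart. Fgfr1, the main FGF receptor of fibroblasts, was at 295 ± 32.3 and 315 ± 8.10 CPM (adjusted p = 0.532), and Fgfrl1, a receptor without a kinase domain, at 20.5 ± 1.79 and 19.3 ± 1.56 CPM (0.55).

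The VEGF receptor kinases and the angiopoietin receptors were not called. Flt1, which binds VEGFA, VEGFB and PGF, was at 19.3 ± 2.65 and 21.7 ± 3.35 CPM (edgeR adjusted p = 0.411). Kdr, the main VEGFA receptor of endothelium, was at 2.22 ± 0.275 and 1.40 ± 0.322 CPM (adjusted p = 0.0726). Flt4, the receptor of VEGFC on lymphatic vessels, was at 0.947 ± 0.151 and 1.41 ± 0.309 CPM (0.133). Tek, the angiopoietin receptor, was at 3.34 ± 0.577 and 2.48 ± 0.545 CPM (adjusted p = 0.183), and its partner Tie1 at 0.195 ± 0.0970 and 0.399 ± 0.111 CPM (0.139). Fgfr3 had 2.75 ± 0.435 and 2.85 ± 0.177 CPM (0.877), and Fgfr4 0.743 ± 0.145 and 0.408 ± 0.142 CPM (0.112). Tek, Tie1 and Kdr are themselves endothelial markers, Flt4 a lymphatic one, and the endothelial markers summed to at most 19.9 CPM in a library.

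Another list held 18 further genes of these families and of the platelet-derived growth factors. Of these 15 were tested, and 3 rose and 3 fell (40.0% called, against 21.5% of all genes). Fgf1, which binds all FGF receptors, rose 15.4-fold from 0.249 ± 0.0358 to 3.92 ± 0.376 CPM (log2 fold change 3.94, edgeR adjusted p = 5.91e-06). Angpt4, another angiopoietin, rose 3.29-fold from 4.13 ± 1.57 to 13.6 ± 3.58 CPM (adjusted p = 0.0038). Pdgfa, a platelet-derived growth factor, rose from 6.53 ± 1.08 to 10.6 ± 0.704 CPM (0.00741). Pdgfd fell from 16.8 ± 0.308 to 11.3 ± 0.465 CPM (edgeR adjusted p = 0.00175), and Fgf18 from 0.668 ± 0.195 to 0.1505 ± 0.0692 CPM (0.00725). Few reads lay behind Fgf1 in ctrl (0.2255, 0.2902 and 0.2314 CPM) and Fgf18 in caNrf2 (0.1083, 0.1128 and 0.2303 CPM). With a stricter filter, at least 1 CPM in 3 libraries, edgeR called 4 genes of this list in place of 6. Fgf21, an endocrine FGF, fell from 2.03 ± 1.26 to 0.622 ± 0.151 CPM (0.029), a call lost in limma-voom (0.0564) and without ctrl 3, caNrf2 1, caNrf2 2 or caNrf2 3. Vegfd, a lymphatic VEGF and the gene of the list with the highest CPM, was at 86.3 ± 5.11 and 99.95 ± 4.68 CPM (edgeR adjusted p = 0.0829).

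Proteases cut several of the factors from inactive forms, and carrier proteins and heparanase free others from the matrix. Of 16 genes of such proteases, their inhibitors and cofactors, carriers and heparanase, 14 were tested. Among these 3 rose and 0 fell (21.4% called, which is near the 21.5% of all genes). Plat, tissue plasminogen activator, rose 1.76-fold from 63.5 ± 8.19 to 112 ± 10.04 CPM (edgeR adjusted p = 0.00114). Plau, the urokinase that can activate HGF, rose from 30.3 ± 4.92 to 45.7 ± 7.49 CPM (0.0193), and Furin, which cuts VEGFC precursors, from 142 ± 16.6 to 185.8 ± 14.3 CPM (0.0285). Plau was not called in edgeR without ctrl 1 (adjusted p = 0.0712), ctrl 3 (0.0671) or caNrf2 2 (0.0576), nor was Furin without any of these (0.0927, 0.0981 and 0.0988) or without caNrf2 3 (0.0718). The count of calls thus fell to 1 without ctrl 3 or without caNrf2 2.

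Vegfa is a classical target of hypoxia-inducible factors (HIF), so the HIF factors and other hypoxia response genes were read beside it. Of 24 genes 22 were tested, 7 rose and 3 fell (45.5% called, against 21.5% of all genes). Their median log2 fold change was 0.12. The HIF factor genes, named after their values were seen, were not among the called genes. Hif1a was at 273 ± 5.55 and 235 ± 22.3 CPM (edgeR adjusted p = 0.127). Epas1 (0.294) and Arnt (0.197) were not called either, and Hif3a was not tested. The prolyl hydroxylase gene Egln3 rose from 6.04 ± 1.24 to 16.6 ± 1.71 CPM (edgeR adjusted p = 0.000295), the glucose transporter Slc2a1 from 62.8 ± 10.8 to 151 ± 6.19 CPM (0.000157) and the glycolytic regulator Pfkfb4 from 15.4 ± 0.626 to 25.2 ± 1.87 CPM (0.000648). Ldha, lactate dehydrogenase and the highest of the list in CPM, rose from 489 ± 69.8 to 643 ± 52.8 CPM (0.0441). The collagen hydroxylase P4ha2 fell from 121 ± 10.03 to 90.3 ± 1.19 CPM (edgeR adjusted p = 0.0067), Ero1l, an oxidase of the endoplasmic reticulum, from 121 ± 14.2 to 86.7 ± 6.35 CPM (0.0101), and Ndrg1 from 111 ± 9.59 to 82.4 ± 7.50 CPM (0.0135). The call of Ldha was lost in edgeR with upper-quartile factors (adjusted p = 0.0539) and without any 1 library except ctrl 2 (0.0632 to 0.151), and that of Ndrg1 without ctrl 3 (0.0521) or caNrf2 2 (0.0506). Vegfa, at a log2 fold change of -0.28, was not called in either direction, and whether it differed from these genes was not tested.

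Of 11 secreted inhibitors of vessel growth 10 were tested, 0 rose and 4 fell (40.0% called, against 21.5% of all genes). Their median log2 fold change was -0.16. Timp3, an inhibitor of metalloproteases that also blocks VEGFA from KDR, fell to 0.461 of ctrl, from 593 ± 84.4 to 274 ± 28.4 CPM (edgeR adjusted p = 0.000377). Thbs2, thrombospondin 2, fell to 0.424, from 1661 ± 356 to 705 ± 82.0 CPM (0.000902), and Tnmd, tenomodulin, from 32.2 ± 3.97 to 14.4 ± 3.06 CPM (0.00119). The fourth was Sema3f, a semaphorin that binds NRP2, named after its values were seen, at 76.4 ± 10.5 and 43.4 ± 5.94 CPM (0.00237). Thbs1, the inhibitor with the highest CPM, was at 10581 ± 1882 and 12290 ± 1878 CPM (edgeR adjusted p = 0.333).

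**Figure D5:**
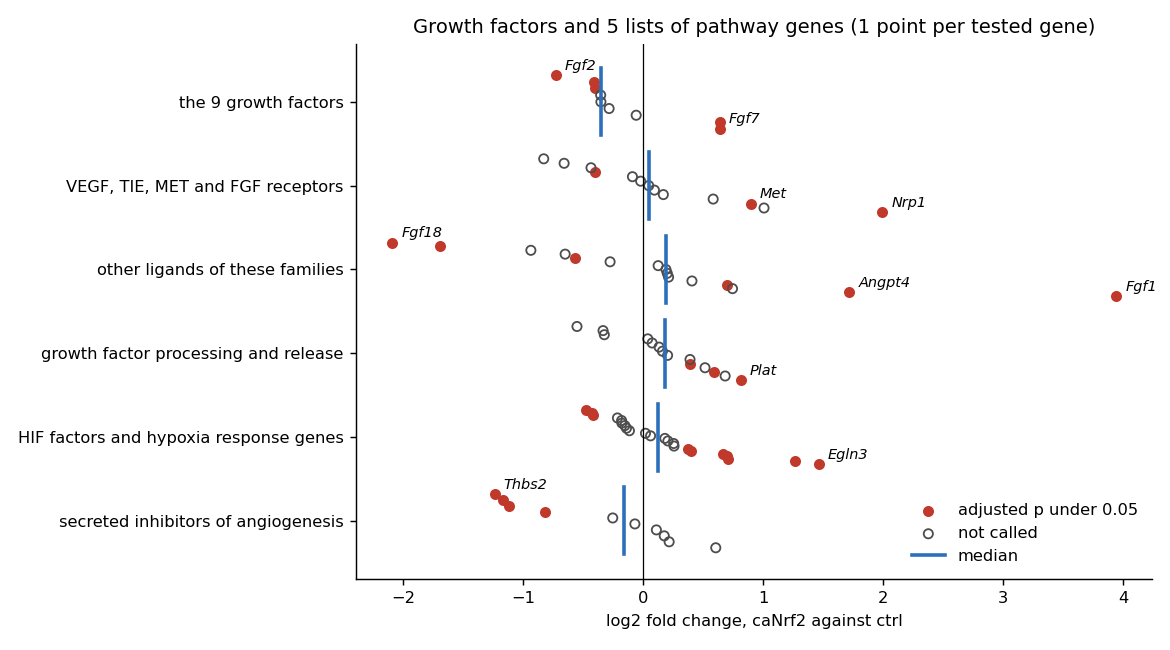
Log2 fold change in caNrf2 against ctrl (x axis) for each tested gene of the 9 growth factors and of 5 related lists (rows); red points passed the test, open points did not, and the blue line is the median of the row. The 9 factors lie between Fgf2 at -0.73 and Fgf7 at 0.64, with Nrp1 at 1.99 and Fgf1 at 3.94 farther out among receptors and other ligands.

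By the distance between centred log2 CPM over the 6 libraries, among 10831 genes with a mean of at least 5 CPM, the genes nearest to Fgf7 were Pdgfa (distance 0.11) and Ctxn1 (0.119). Those nearest to Angpt2 were Lnpk (0.102) and Sclt1 (0.142). Pdgfa thus appeared both in the list of further family genes and as the nearest pattern to Fgf7. Distances of this kind were computed over 6 libraries in 2 groups and describe likeness of pattern only.

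NRF2 binds antioxidant response elements, whose core can be written TGACNNNGC. This core was looked for on both strands in the 250 bases before each RefSeq gene start (GRCm38.p6), and 3338 of 32851 promoters, 10.2%, held it. Of 10 promoters of the members in the table, which cover 7 of the 9 genes and not Angpt1 or Angpt2, 3 held it: 1 each of Fgf2, Pgf and Vegfc, with the first base 144, 131 and 95 bases before the start. Of these, Fgf2 was called lower and Pgf and Vegfc were not called. The Fgf2 window lies inside the first exon of a longer Fgf2 model. The promoter of Fgf7 and the 1 of Vegfb did not hold these letters.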

How the data were processed

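RNA-seq values of 6 libraries were used as deposited. Each table holds 104129 Ensembl transcripts of 43629 gene IDs, of which 42462 had a symbol. RSEM 1.2.21, CASAVA 1.8 and the build GRCm38 are named in the submitters' processing notes. The sources used here give no aligner, annotation release or strand setting. The authors deposited, per the file headers, expected counts per transcript (maximum likelihood and posterior mean), in which shared reads are divided by estimated abundance. The deposited TPM values, scaled by the authors for length and library size, were used for levels between genes, and the deposited FPKM values were not used.

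The maximum likelihood values were added up per gene and rounded. The test was edgeR 4.0.16 (R 4.3.3) with filterByExpr (minimum count 10, minimum total count 15), TMM factors and a quasi-likelihood F test (two-sided) with Benjamini-Hochberg adjustment and a threshold of 0.05. The SE is that of the log2 fold change, from the F statistic. Transcript usage was tested with diffSpliceDGE. Both tests were tried on simulated data. There, at the spread of these libraries, the usage test missed most of the changed genes and also called unchanged ones. Transcript types and exons came from GENCODE M21.

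The alternatives were DESeq2 1.42.0, limma-voom (limma 3.58.1), other size factors and filters, unrounded or posterior mean counts, each library left out, and the replicate number as a block. The design states 3 mice per group; where libraries were not separate mice, the p-values measure only the spread between samples. The members and lists were chosen with earlier results of these data known. The named genes are the 9 members, Nfe2l2 and Nqo1, all tested receptors, from each other list the 3 called genes of smallest adjusted p per direction and the most abundant gene, and the 2 nearest patterns of the strongest call in each direction. Sema3f and the HIF factor genes were added after their values were seen.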

Additional observations from a re-analysis of the deposited data

How the results depend on the processing

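No member changed sign under any alternative. All 5 called members stayed called in each alternative of normalization, filter, tool, rounding and estimate. The count of members called higher was 1 to 2 without 1 library and of those called lower 0 to 3, with 0 without ctrl 3 and without caNrf2 3. It was 2 lower with Fgf2 counted without the transcript of Gm43439. The count of called genes of growth factor processing ranged from 1 to 4. Over all genes, calls numbered 2206 to 2898 without 1 library, against 3302.

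The replicate numbers were not treated as pairing the libraries. Same-numbered libraries had correlations of deviations of 0.214, 0.209 and 0.095, and caNrf2 3 correlated more with ctrl 2 (0.112) than with ctrl 3. With the replicate block, 1 member was called higher, since Angpt1 had an adjusted p of 0.0667 in edgeR, and 2 lower, since Fgf2 had 0.0605.

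Pgf had the fewest counts of the 9 members, 20 to 34 per library. In place of maximum likelihood TPM, posterior mean TPM moved 3 members by more than 1 SD, to lower levels: Vegfb (40.8 in ctrl and 29.7 in caNrf2), Vegfc (36.35 and 34.0) and, in ctrl, Angpt2 (14.8).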
